A study of Drosophila melanogaster with 2 samples.

Results

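Binding of the POU-domain transcription factor ventral veins lacking (vvl) was examined at 34 genes of the Toll and Imd immune pathways, 20 pathway components and 14 antimicrobial peptide genes, among 13945 protein-coding genes on 6 chromosome arms. The members were taken from the pathways by gene name, with earlier results of these data known. Each was given a window of its gene body with 2 kb on each side, in which the summits of peaks, the positions of highest signal within each peak, were counted. The data are chromatin immunoprecipitation followed by sequencing (ChIP-seq) from whole Drosophila melanogaster embryos aged 0 to 24 h, of a strain that carries a vvl-eGFP fusion, precipitated with an anti-GFP antibody after shearing to 200 to 800 bp. There was 1 group of 2 biological replicates. The labels name no immune challenge, and the whole embryos mix all tissues and stages of that day of development. From the labels it cannot be read if the fusion replaces vvl or comes on top of it. The deposited files are peak lists without read counts, so the depth of each replicate is unknown. Counts rest on the stricter of the lists made from both replicates, called conservative by the authors, which holds 8309 peaks. The authors' signal, a value per peak with no stated scaling, had a median of 141.3 in it, with quartiles of 104.0 and 218.0.

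In flies, peptidoglycan recognition proteins (PGRPs) detect bacterial cell walls. In the Imd pathway they signal through the adaptors imd and Fadd, the caspase Dredd and the kinases Tak1 and IKK to the NF-kappaB factor Rel. In the Toll pathway, recognition in the hemolymph leads to cleavage of the ligand spz, which activates the receptor Tl. Tl acts through Myd88, tub and pll on the inhibitor cact, which holds the NF-kappaB factors Dif and dl in the cytoplasm. The same Toll components pattern the dorsoventral axis of the early embryo. The antimicrobial peptides, among them the Cecropins, Attacins, Diptericins, Drosomycin, Defensin and Metchnikowin, are the targets of these factors after infection. The protein vvl, also called Drifter, has been described as an activator of antimicrobial peptide genes in barrier epithelia of the adult fly, which gives the question of whether it was found at them in the embryo.

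Conservative summits were frequent at pathway components and were not found at the start of any antimicrobial peptide gene. Of the 20 components, 15 (75.0%) had a conservative summit in their window. Of the 14 peptide genes, 2 (14.3%) had one, and in both it lay at the start of a neighbour. Over all protein-coding genes the share was 47.0%. The peptide genes are short, with windows of 4268 to 4963 bp against 4721 to 47363 bp for the components, and short windows hold fewer summits. Among the 500 protein-coding genes nearest to each member in window length, the mean share with a summit was 54.0% for the components, which corresponds to 10.8 genes. For the peptide genes it was 23.0%, or 3.22 genes. In the list of replicate 1 alone the components with a summit were 11 and the peptide genes 3, each close to the count of its length class in the conservative list. No length class was taken in the list of replicate 1 itself, in which 46.3% of all protein-coding genes had a summit. These counts describe a single group of samples, and no test of a gene list was made.

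At transcription start sites (TSSs), a summit lay within 500 bp of an own TSS in 13 of the 20 components (65.0%) and in 0 of the 14 peptide genes, against 28.7% of all protein-coding genes. In genes of similar window length the shares were 33.7% (6.75 genes) for the components and 9.79% (1.37 genes) for the peptide genes. A count of 0 in 14 allows a share of up to 21.4% (3 counts of the total, for counting error only), so the share of the length class lies within that limit. The 14 peptide genes form 8 separate loci, because the windows of the 4 Cecropins, of Dro, AttA and AttB, and of DptA and DptB overlap within each cluster. They are therefore not 14 independent observations. Both pathways contributed, with a summit at 7 of 10 Imd components and 8 of 10 Toll components, against 5.27 and 5.53 in their length classes. At an own TSS the counts were 6 and 7, against 3.35 and 3.39.

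**Figure D1:**
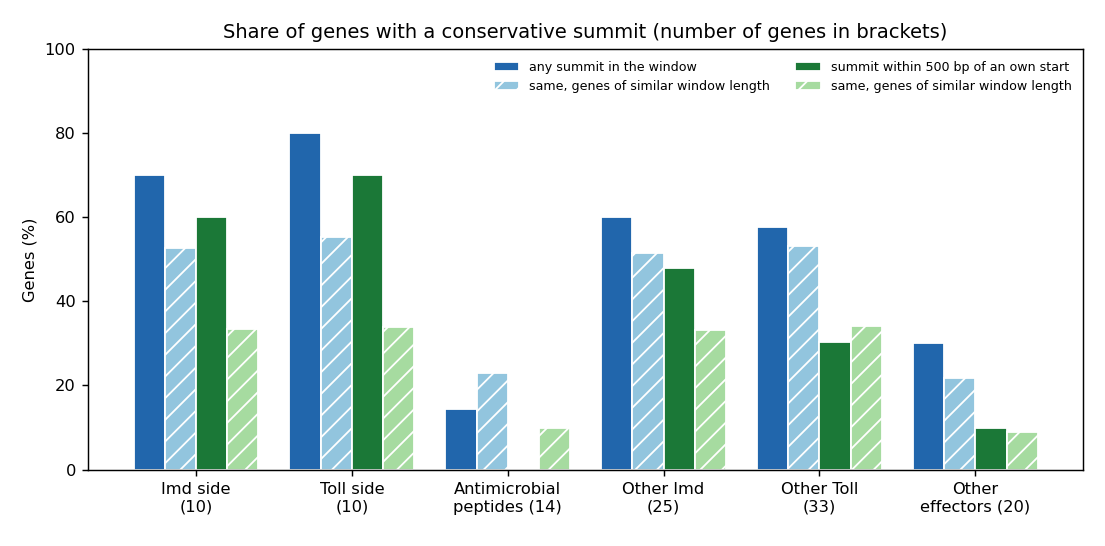
Percent of genes (y axis, 0 to 100) with a conservative summit in the window of the gene (blue) or within 500 bp of an own start (green), by gene list. Hatched bars give the mean share in the 500 protein-coding genes nearest in window length. The 2 lists of pathway components stand above their hatched bars, and the antimicrobial peptide genes have no green bar, since 0 of 14 had a summit at an own start.

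Of the PGRP genes of the Imd pathway, PGRP-LC, which encodes the membrane receptor, had 2 summits (dm6, gene at 3L:9338810-9348336). The first, in a peak at 3L:9340246-9340641, lay 6 bp from an internal TSS of the gene, and the second, at 3L:9341263-9341658, in an intron 1007 bp from the nearest own TSS. Their signals were 109.6 and 104.8, both under the median of the list. In the ranked list of replicate 1 the first had a signal of 67.37 and in that of replicate 2 one of 45.83. The second had 69.07 and 40.93. Both overlapped a thresholded peak of replicate 1 and neither one of replicate 2, so PGRP-LC had no summit in the list of replicate 2 alone.

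The intronic PGRP-LC summit is 1 of 2 member summits with the octamer ATGCAAAT, the classical target word of POU factors. The bases from 50 bp before to 50 bp after it (3L:9341411-9341511, plus strand, Release 6) are shown because they hold the octamer 7 bp from the summit. The capitals mark the octamer, which reads on the minus strand.
PGRP-LC intron: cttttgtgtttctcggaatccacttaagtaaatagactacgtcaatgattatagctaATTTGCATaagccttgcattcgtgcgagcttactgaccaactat

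PGRP-LE, which encodes an intracellular sensor of peptidoglycan, had 1 summit of signal 77.36 (X:15802820-15803215), 49 bp from the second of its 2 TSSs. Replicate signals were 45.47 and 44.54. PGRP-LB encodes an amidase that degrades peptidoglycan and dampens the pathway. Its stronger summit, at 3R:11458621-11458797 with a signal of 190.1, was intronic and 699 bp from an own TSS. It was 54.43 in replicate 1 and 142.1 in replicate 2, the widest ratio in favour of replicate 2 among the member summits measured in both. The other PGRP-LB summit (76.03) was downstream of the gene and 401 bp from the TSS of sals, a sarcomere gene.

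Among the signalling components, Tak1, the kinase that activates the IKK complex, had 2 summits (gene at X:20515908-20524928). An upstream one, 229 bp from the gene's 5' end at X:20524959-20525354, had a signal of 139.1, with 54.45 in replicate 1 and 85.12 in replicate 2. An intronic one at X:20519016-20519411 had 159.1, with 105.8 and 41.1. The replicates thus ranked the 2 Tak1 summits in opposite order. The start of Tak1 held none of the 9 words searched, and its 201 bases around the summit are printed to show this (X:20525057-20525257, plus strand).
Tak1 start: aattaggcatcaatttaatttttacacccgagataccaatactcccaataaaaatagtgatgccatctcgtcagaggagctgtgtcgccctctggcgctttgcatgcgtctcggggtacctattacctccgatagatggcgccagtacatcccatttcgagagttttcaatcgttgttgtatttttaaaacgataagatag

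IKKbeta, the kinase that phosphorylates Rel, had its only summit in the stretch it shares with the divergent gene CG5013 (3R:16049396-16049791). The summit lay 173 bp from the TSS of IKKbeta and 76 bp from that of CG5013, and its signal of 75.88 was among the lowest of the members. Replicate signals were 42.61 and 47.05, and only the thresholded list of replicate 2 held it. Fadd, the adaptor between imd and Dredd, and Dredd, the caspase that cleaves imd and Rel, had no conservative summit. The highest ranked peak in the Fadd window had a signal of 51.21 and a −log10 IDR of 0.841, where IDR is the irreproducible discovery rate and thresholded peaks have 2 or more. In the Dredd window it was 86.2, with a −log10 IDR of 1.92, just short of the threshold. Dredd had 2 summits in the broader list and 1 in that of replicate 1. Fadd had none in any of the 4 thresholded lists.

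The strongest member peak was in the imd window, and it belongs as much to a neighbour. imd (2R:18409796-18413599) had 4 summits with signals of 752.3, 127.4, 78.78 and 40.36. All 4 were nearest to a TSS of Dp1, an RNA-binding protein gene that is transcribed from the opposite strand and has starts inside imd. The strongest (2R:18413693-18414014, rank 191 of 8309) was 187 bp from a Dp1 TSS and 265 bp upstream of the 5' end of imd. It was strong in both replicates, at 466.8 and 279.4. The second (2R:18411777-18412172) lay 52 bp from Dp1 and 443 bp from the internal TSS of imd. The other 2 were within 500 bp of Dp1 only. The weakest had no summit within 100 bp in either replicate's ranked list, although its peak overlapped a thresholded peak of each. key, the regulatory subunit of the IKK complex, had 1 summit 124 bp upstream of its TSS (2R:24787337-24787732). Its signal was 93.42, with 62.83 in replicate 1 and 33.55 in replicate 2, and it overlapped a thresholded peak of replicate 1 only.

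Rel, the NF-kappaB factor at the end of the Imd pathway, had no summit in the thresholded lists but 2 passing peaks in the ranked list. The stronger, at 3R:9047624-9047929, lay 54 bp from a Rel TSS with a signal of 391.0 and a −log10 IDR of 4.97. Its replicate signals were 255.6 and 104.5. The weaker, at 3R:9048172-9048567, had 133.9 and a −log10 IDR of 2.36 and was 393 bp from a Rel TSS and 275 bp from that of Mst85C. They belong to 184 of 8493 ranked peaks that meet the IDR threshold but are not among the 8309 conservative peaks. Why they are not there is not known, so the count of 0 at Rel is not a measured absence. With those peaks included, 16 of 20 components had a summit, against 47.6% of all protein-coding genes. The number of members with one at an own TSS became 14, for which no share of all genes was taken.

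On the Toll side, the recognition gene PGRP-SA, whose product binds the cell wall of Gram-positive bacteria, had 1 summit 1226 bp upstream of its TSS (X:11560219-11560614). It had a signal of 137.8, with 65.76 and 75.79 in the replicates, and the POU word ATGCATAT lay within 50 bp of it. PGRP-SD, its partner in recognition, had none. The highest ranked peak there had a signal of 32.52, and the nearest conservative summit was 9476 bp from its TSS. The ligand gene spz had a summit 176 bp upstream of its 5' end (3R:27070048-27070443) with a signal of 118.9. In replicate 1 it was 66.78, and no summit of the ranked list of replicate 2 lay within 100 bp. The peak itself overlapped a thresholded peak of each replicate.

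Tl, the receptor, had 4 summits across its window of 47363 bp, against a mean of 2.87 in genes of that length. One lay 55 bp from the 5' end (3R:26798898-26799293), with a signal of 106.9 and replicate values of 58.49 and 65.28. The strongest, at 3R:26797670-26798065, was 1173 bp upstream, with 154.6 and replicate values of 103.4 and 55.57. Intronic summits 2547 and 22242 bp from the start had 104.4 and 113.3. All 4 overlapped a thresholded peak of replicate 2, and the upstream and the far intronic one also overlapped one of replicate 1. The upstream summit is the other one with the octamer, 17 bp away on the minus strand, in capitals in these 101 bases (3R:26797818-26797918, plus strand).
Tl upstream: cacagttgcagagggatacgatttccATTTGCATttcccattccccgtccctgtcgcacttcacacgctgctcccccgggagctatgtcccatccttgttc

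The adaptor tub and the kinase pll, which form the complex below Tl, each had 1 summit at the 5' end. That of tub, 56 bp upstream of its TSS (3R:4387488-4387883), had a signal of 123.6, with 60.92 and 68.81 in the replicates. That of pll was far stronger, at 362.3 (3R:27253145-27253369, rank 853), and even between replicates, at 180.5 and 180.8. It was 71 bp from the TSS of pll and also within 500 bp of a TSS of TfIIA-L, a general transcription factor gene. The 201 bases centred on each summit, on the plus strand, show what the start of each gene holds. The capitals mark GGTCACAC, the word of the promoter factor M1BP, and a match to the kappaB consensus in tub (3R:4387586-4387786), and the homeodomain word TAATTA in pll (3R:27253153-27253353).
tub start: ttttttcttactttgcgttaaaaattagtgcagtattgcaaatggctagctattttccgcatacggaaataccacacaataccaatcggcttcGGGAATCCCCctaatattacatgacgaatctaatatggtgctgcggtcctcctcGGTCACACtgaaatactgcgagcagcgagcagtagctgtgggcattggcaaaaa
pll start: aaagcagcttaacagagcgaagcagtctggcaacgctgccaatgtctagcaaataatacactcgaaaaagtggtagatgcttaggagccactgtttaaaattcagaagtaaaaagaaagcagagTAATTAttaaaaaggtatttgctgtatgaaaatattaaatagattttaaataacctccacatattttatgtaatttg

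The inhibitor cact had the strongest peak that lay at the start of a member alone. Its signal was 484.5 (2L:16325642-16325892, rank 471), with 279.7 and 195.7 in the replicates. The summit was 144 bp from an own TSS, in the first part of the gene, and 1 further intronic summit (123.3) lay 10217 bp from the nearest own TSS. The NF-kappaB gene Dif had 2 summits. The first (178.8, 2L:17427860-17428255) was 141 bp from an internal TSS of Dif. The second (214.2, 2L:17430023-17430224) was 397 bp from the start of a noncoding RNA, lncRNA:CR44409, and 1904 bp from one of Dif. Replicate 1 was higher at the first (122.8 against 63.44) and replicate 2 at the second (116.6 against 81.17). dl, the neighbouring NF-kappaB gene that patterns the embryo, had no summit in any of the 4 thresholded lists, although 67.6% of genes of its window length had a conservative one. Its highest ranked peak had a signal of 68.62 and lay 508 bp from a TSS, and its nearest conservative summit was 15464 bp away. The bases around the summits of cact (2L:16325669-16325869) and Dif (2L:17427958-17428158) follow, as the starts of a cytoplasmic inhibitor and of a factor it holds. That of cact has none of the words, and TAATTA is in capitals in Dif.
cact start: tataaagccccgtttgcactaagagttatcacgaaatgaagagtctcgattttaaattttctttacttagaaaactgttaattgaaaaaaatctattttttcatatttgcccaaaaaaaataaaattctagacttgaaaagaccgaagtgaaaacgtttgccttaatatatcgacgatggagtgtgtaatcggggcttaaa
Dif start: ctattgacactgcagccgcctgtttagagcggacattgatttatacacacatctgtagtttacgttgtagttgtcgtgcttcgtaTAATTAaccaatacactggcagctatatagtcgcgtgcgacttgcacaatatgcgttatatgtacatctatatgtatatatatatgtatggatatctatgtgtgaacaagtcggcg

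Myd88, the adaptor that links Tl to tub and pll, had 3 summits, all present in the list of replicate 2. That at its 5' end (2R:9308711-9308925) was 89 bp upstream with a signal of 238.0 and replicate values of 104.5 and 160.9. The others, in exons 732 and 5342 bp from a TSS, had 96.7 and 136.9. Together the components held 28 summits. Of these, 10 lay at a start of the member alone, 4 at a start shared with another gene, 4 at the start of another gene alone and 10 away from any start. The last group covered the 5 summits of Tl and Myd88 named above and others at PGRP-LC, PGRP-LB, PGRP-SA, Tak1 and cact.

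**Figure D2:**
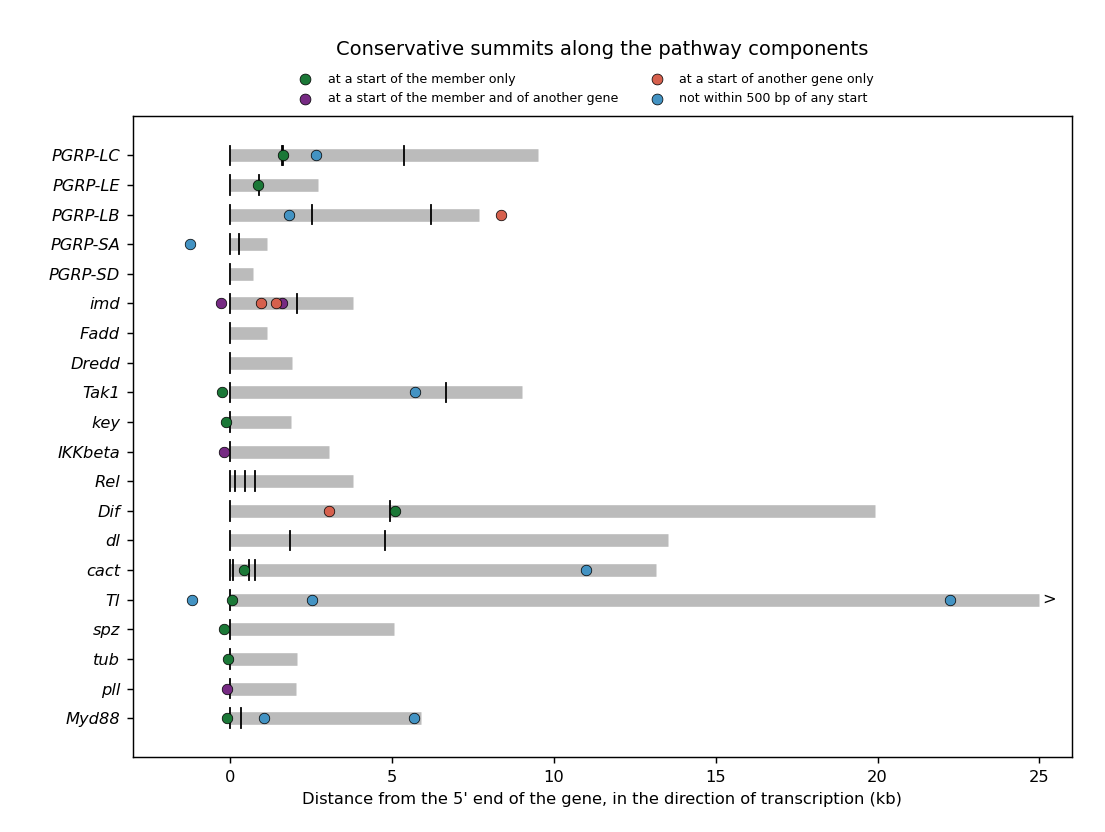
Conservative summits (points, coloured by the kind of start within 500 bp) along the 20 pathway components, with distance from the 5' end of the gene in kb on the x axis. Grey bars are gene bodies (that of Tl is cut at 25 kb) and black ticks are annotated starts. Summits at a start lie at the 5' end or at internal starts, where those of PGRP-LC, PGRP-LE and Dif are, and the 4 of imd lie among starts of Dp1.

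Over all 34 members, 31 summits were found, none of them in the windows of 2 members at once. The share at a start of the member alone was 32.3%, against 18.5% of all pairs of a protein-coding gene and a summit in its window. The share at the start of another gene alone was 22.6% against 27.0%, and that away from starts 32.3% against 36.2%. The strongest summit was nearest to the TSS of another gene in 5 of the 17 members with a summit (29.4%), namely imd, IKKbeta, Dif, CecA1 and Def. Among all 6556 protein-coding genes with a summit it was 53.7%. The median signal of the 31 was 123.6, and 11 were above the median of the list.

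**Figure D3:**
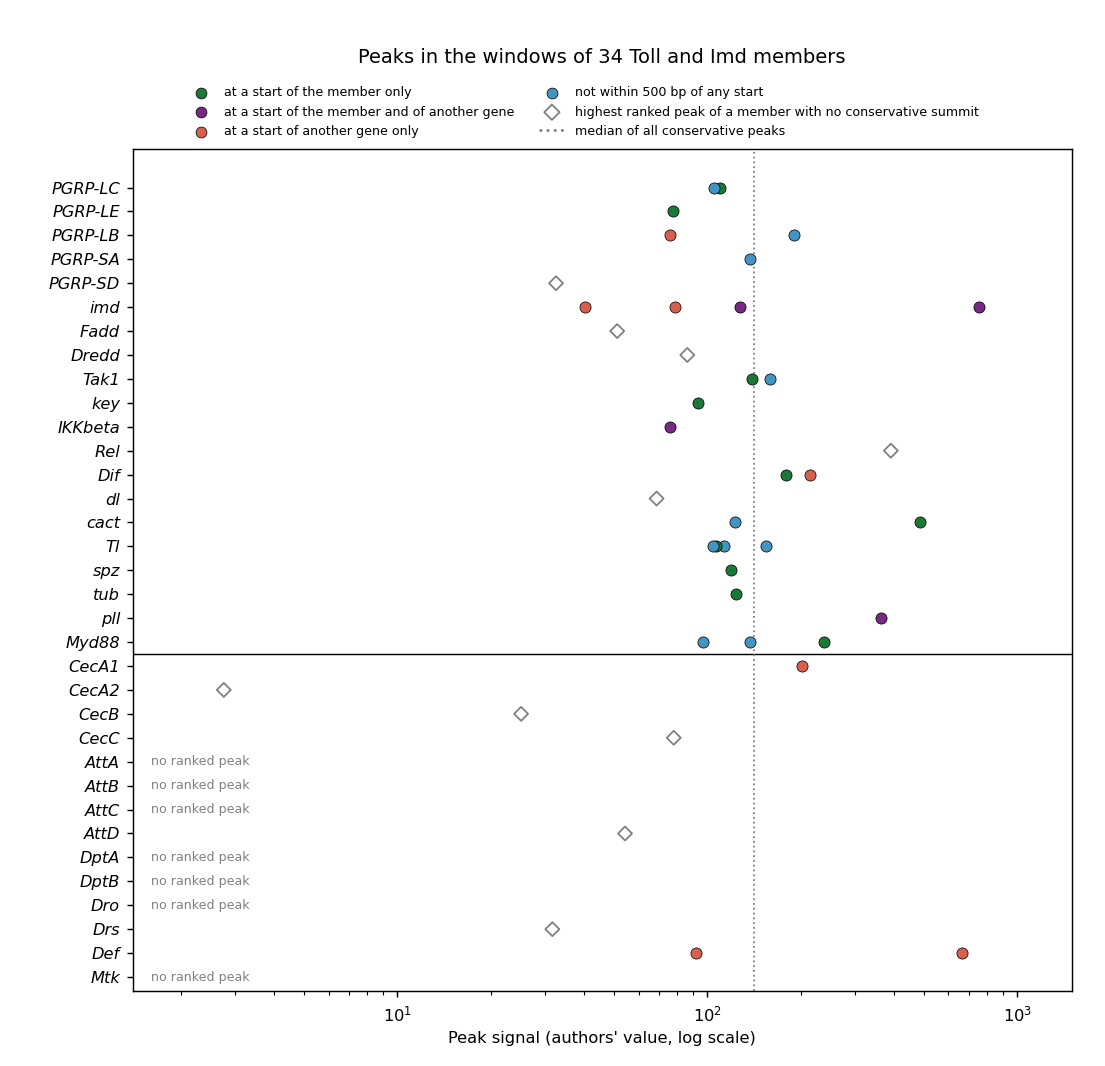
Signal of each conservative peak (x axis, log scale) in the windows of the 34 members, with the pathway components above the line and the antimicrobial peptide genes below it. Open diamonds give the highest ranked peak of members with no conservative summit, and the dotted line is the median of all conservative peaks, 141.3. The peptide genes hold 3 points, all at starts of other genes, and 7 of them have no ranked peak. The diamond of Rel, at 391.0, is a peak that passes the IDR threshold.

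Of the 31 peaks, 16 (51.6%) overlapped a thresholded peak of each replicate by 1 bp or more, against 62.4% of all conservative peaks. For replicate 1 alone the share was 64.5% against 81.5%, and for replicate 2 alone 80.6% against 73.4%. All 15 peaks of the Toll components overlapped one of replicate 2 and 10 of them one of replicate 1. Of the 13 peaks of the Imd components, 8 overlapped one of replicate 1 and 8 one of replicate 2, but only 4 did both. In the list of replicate 1 alone 11 components and 3 peptide genes had a summit (46.3% of all protein-coding genes), in that of replicate 2 alone 13 and 2 (45.5%), and in the broader list 16 and 2 (54.4%).

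**Figure D4:**
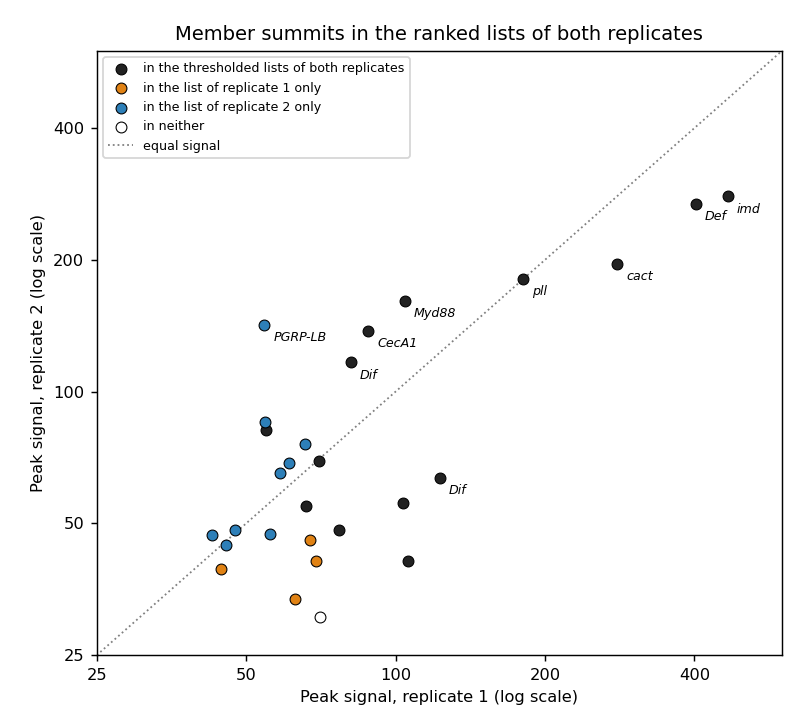
Signal of the 28 member summits that have a summit within 100 bp in the ranked lists of both replicates, replicate 1 on the x axis and replicate 2 on the y axis (both log scales), coloured by the thresholded lists the peak overlaps. The dotted line marks equal signal. The peaks of imd, Def, cact and pll lead in both replicates, and the peak of PGRP-LB lies farthest above the line.

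The 4 Cecropin genes lie within a few kb of each other, and CecA1 alone had a summit in its window. It was 1878 bp upstream of CecA1 but 24 bp from the TSS of RpS7, a ribosomal protein gene (3R:30208924-30209085). The signal was 202.0, with 88.16 in replicate 1 and 137.4 in replicate 2, and the peak overlapped the lists of both. CecA2 and CecB had only weak ranked peaks, of 2.756 and 25.08. CecC had a ranked peak of 77.94 at 1464 bp from its TSS with a −log10 IDR of 1.92, just short of the threshold. The conservative summit nearest to CecC was 6009 bp downstream of its TSS, with a signal of 109.0, and had no closer annotated start. The RpS7 peak is printed whole (plus strand), with TATCGATA, the DNA replication-related element (DRE) of housekeeping promoters, in capitals.
CecA1 window, RpS7 start: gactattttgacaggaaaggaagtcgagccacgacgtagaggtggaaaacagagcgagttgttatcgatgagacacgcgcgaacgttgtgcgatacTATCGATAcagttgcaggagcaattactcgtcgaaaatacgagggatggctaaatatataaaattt

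The promoters of the peptide genes held words of NF-kappaB factors but no conservative summit. Genes of similar window length gave 1.37 of 14 with a summit at an own start, and the 14 peptide genes form 8 loci. The kappaB consensus, searched on both strands from 250 bases before to 50 after the 5' end, was in 10 of the 14 promoters, against 6.14% of the promoters of all protein-coding genes. It was in 4 of the 20 promoters of the components, those of PGRP-SD, key, cact and tub. The octamer was in 1 peptide promoter, that of CecA2, and in none of the components' (3.47% of all promoters). ATGCATAT was in those of CecA2 and AttD (1.81%), and the GATA word AGATAAG in those of CecA1, AttC, DptA and Def (4.60%). CecA2 thus carried the octamer in its promoter without a thresholded peak in its window in any list. The 300 bases of CecA2 (3R:30211906-30212205) and CecA1 (3R:30210624-30210923) are shown on the plus strand, in which both are transcribed. In CecA2 the capitals mark 4 kappaB matches, ATGCATAT and the octamer, which do not overlap, and in CecA1 a kappaB match and the GATA word.
CecA2 promoter: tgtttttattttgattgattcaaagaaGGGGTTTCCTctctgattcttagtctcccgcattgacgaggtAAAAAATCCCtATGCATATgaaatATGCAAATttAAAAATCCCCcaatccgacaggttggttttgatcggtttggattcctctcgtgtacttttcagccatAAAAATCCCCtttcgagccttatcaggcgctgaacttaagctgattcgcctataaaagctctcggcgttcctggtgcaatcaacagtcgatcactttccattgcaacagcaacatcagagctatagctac
CecA1 promoter: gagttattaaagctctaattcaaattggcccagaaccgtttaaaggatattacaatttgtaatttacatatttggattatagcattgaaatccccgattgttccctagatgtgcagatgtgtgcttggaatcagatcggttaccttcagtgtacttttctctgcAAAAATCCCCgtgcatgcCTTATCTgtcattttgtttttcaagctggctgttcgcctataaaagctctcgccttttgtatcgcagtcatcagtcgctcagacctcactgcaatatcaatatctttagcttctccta

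Defensin was the other peptide gene with summits, and these too lay at neighbours. Def (2R:10054178-10054576) had a strong peak 1955 bp upstream (2R:10056393-10056670) with a signal of 665.2, rank 255, and 403.1 and 268.3 in the replicates. Its summit was 295 bp from the TSS of magu, which encodes a secreted modulator of BMP signalling. The second, 92.28 (2R:10052104-10052499), was 135 bp from the TSS of sel and overlapped no thresholded peak of either replicate alone. Both lay close to the edge of the 2 kb window, as did the peak of RpS7 at CecA1. Just outside such a window was the peak at ave, of signal 286.1, whose summit was 3176 bp from the TSS of AttB, 5037 bp from that of AttA and 6438 bp from that of Dro.

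The nearest summit to Drs, which encodes Drosomycin, was 4660 bp away at the TSS of Ythdc1 and had a signal of 95.73. For AttD it was 5395 bp away, at a tRNA gene, and for DptB and DptA 7926 and 9552 bp away, in a peak of signal 607.3 that lay 3074 bp from the TSS of sano. For Mtk and AttC it was 28153 and 35620 bp away. The median distance from a TSS to the nearest conservative summit was 5216 bp for the 14 peptide genes and 174.5 bp for the 20 components. No such median was taken for genes of similar window length. The distance is from the closest annotated TSS, of which each peptide gene has 1 and the components have up to 4. Peptide genes of the same cluster can also share a nearest summit. The windows of 7 peptide genes, AttA, AttB, AttC, DptA, DptB, Dro and Mtk, held no peak even in the ranked list, in which 77.4% of all protein-coding genes had one. Genes of their window lengths gave 7.74 of 14 with a ranked peak, close to the 7 observed. All 20 components had a ranked peak, against 16.5. AttD had 1 summit in the list of replicate 1 alone and none in the other 3 thresholded lists.

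**Figure D5:**
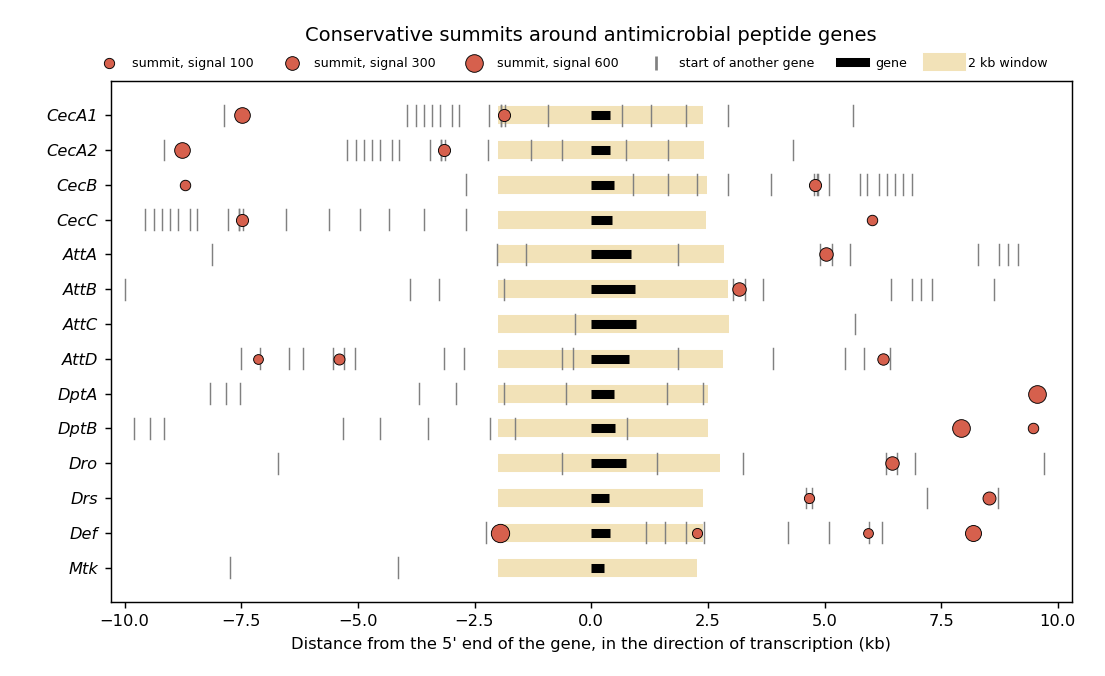
Conservative summits within 10 kb of the 14 antimicrobial peptide genes, with distance from the 5' end in kb in the direction of transcription on the x axis. Points are scaled by peak signal, grey ticks are starts of other genes, black bars the genes and shaded bars their 2 kb windows. Of the points, 3 lie inside a window, and none lies at the start of a peptide gene.

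POU words were uncommon at member summits, as they were at all conservative summits. The octamer was within 100 bp of 2 of the 31, those of PGRP-LC and Tl printed above, against 6.68% of all 8309 summits. For the words that follow, the share in brackets is also that of all 8309 summits, not of the 31. ATGCATAT was near 2, of PGRP-LC and PGRP-SA (2.56%), and ATGCTAAT near 0 (2.64%). TAATTA was near 8 (15.6%), the DRE near 3 (3.80%), at PGRP-LE and in the windows of CecA1 and Def, the M1BP word near 1 (3.02%), GAGAGAG near 1 (5.98%) and AGATAAG near 0 (2.33%). The kappaB consensus was within 100 bp of 7 (3.79%), 2 of them of imd and the others of PGRP-LE, key, cact, Tl and tub. Within 50 bp it was near 1, that of tub (1.67% of all summits). A match describes the letters only.

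Of 78 further genes of the pathways, 40 had a conservative summit, against 34.8 in genes of similar window length. They were 15 of 25 on the Imd side (12.9 in the length class), 19 of 33 on the Toll side (17.5) and 6 of 20 effectors (4.35). A summit at an own TSS was found in 12 genes of the Imd list, 10 of the Toll list and 2 effectors, against 8.27, 11.3 and 1.80 in their length classes. The strongest on the Imd side were at POSH, a scaffold protein (616.2, 96 bp from its TSS, shared with Ns2), eff, a ubiquitin-conjugating enzyme (559.3, intronic), and Tab2, the partner of Tak1 (331.1, intronic). On the Toll side the strongest was 585 bp upstream of Gprk2, a kinase, with 2308, but it lay 80 bp from the TSS of PNPase. It was followed by an intronic peak of Pli (566.7), the Pellino homologue, and one 259 bp from the TSS of Toll-7 (458.2), a Tl-related receptor. The 6 effectors with a summit were all Drosomycin-like genes, which share 3 summits. One of these, 222.6 at 3L:3315305-3315700, lay 117 bp upstream of Drsl4 and in the windows of Drsl2, Drsl3 and Drsl5. Among the 14 peptide genes and these 20 effectors it was the only own start that held a conservative summit without the start of another gene. The octamer and ATGCTAAT each lay within 100 bp of that summit, against 6.68% and 2.64% of all conservative summits. That peak had 171.0 in replicate 1 and 48.96 in replicate 2, and overlapped a thresholded peak of replicate 1 only. Another, 169.2, lay 481 bp from the start of Drsl6 and 39 bp from that of kst. The 14 other effectors, which include the Bomanins, had no conservative summit. Of these, edin had 2 summits in the broader list, 3 in that of replicate 1 and 2 in that of replicate 2. Its highest ranked peak had a signal of 107.8 and a −log10 IDR of 1.92, just short of the threshold.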

How the data were processed

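The authors deposited 8 peak lists in dm6 coordinates, 4 thresholded and 4 ranked, per the accompanying text files. The lists of the series derive from the alignments of both replicates, those of each replicate from its own. The aligner, peak caller and versions are not stated there or in the labels. In the deposited lists each peak has a signal, a score of at most 1000 (830 or more in thresholded lists) and a summit offset. The deposited ranked lists also give the −log10 of the IDR. Peak signal is the authors' own value and served only to rank and describe peaks within a list.

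Genes and TSSs came from Ensembl release 115 and sequence from the RefSeq Release 6 assembly. Of 30593 annotated start codons, 99.83% read ATG in it. Summits were counted in gene windows with Python 3.11.15, pandas 2.3.3 and numpy 2.4.6. Counting was tested on simulated summits. Length classes were the 500 protein-coding genes nearest in window length. A replicate's signal at a summit is that of the closest peak in its ranked list, at most 100 bp off. The word searches used 100 bp on each side of summits. All 34 members are named, with the genes whose TSS is nearest to their summits. Of 78 other pathway genes, the 3 strongest per list are named. Printed sequences are the 5 strongest peaks at member TSSs off 2R and the strongest peptide-window peak off 2R. The octamer windows, the promoter words, the ranked-peak counts, the distances to the nearest summit and the peaks around Rel were chosen after the values were seen. Members and lists were chosen with earlier results of these data known. Intervals and limits cover counting error only. With 1 group, no test was made. Nothing says how many embryos each replicate pooled.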

Additional observations from a re-analysis of the deposited data

How the results depend on the processing

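No paired analysis was possible because there is 1 group and no result comes from a test. With only the peaks above the median signal, 8 components, 10 members in all and 5 own starts had a summit, and 3 summits lay at other starts alone, while the share of all protein-coding genes with a summit was 32.3% against 47.0% with all peaks. With the gene body alone these were 9, 9, 6 and 3, the peptide genes had 0 and the other pathway genes 14 (17.4% of all genes). With 500 bp on each side the peptide genes had 0 and 3 summits were at other starts (36.4% of all genes). With 10 kb on each side 12 peptide genes, 32 members, 63 other genes and 43 summits at other starts were counted (74.0% of all genes). When either replicate was left out, members with a summit at an own start ranged from 8 to 11 and summits at other starts from 3 to 6. Components with a summit ranged from 11 to 13, peptide genes from 2 to 3, members from 14 to 15 and other genes from 38 to 39 (45.5% to 46.3% of all genes). At own starts, the share of all protein-coding genes (28.7%) was taken in the conservative list with all peaks only. The own-start counts at other settings have no such share beside them. Within 50 bp of summits TAATTA was near 4 (8.59% of all summits), ATGCATAT near 1 (1.52%) and the kappaB consensus near 1 (1.67%). The M1BP and GAGA words were near 0 (1.61% and 2.74% of all summits). The cause of these moves was not tested, apart from the smaller windows and peak sets, which hold fewer summits by construction. The broader list, peak overlap instead of summits and the 184 further passing peaks kept each of the 6 counts within 1.5 times its value. So did 1000 bp as the limit for a start for the 2 counts that use it, and 20 length bins or 200 nearest genes for the length-class shares. Depth is unknown, so a gene with no summit is one at which none was detectable in these lists.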

Other observations

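The region around Rel held more signal than the thresholded lists show. Within 20 kb of the gene, 7 ranked peaks that meet the IDR threshold, from 3R:9047624 to 3R:9057726, are in none of the 4 thresholded lists, with signals of 47.53 to 502.3. No summit of those lists lies in that stretch. In all, 5 of the 7 are nearest to a TSS of Kdm2, which encodes a histone demethylase. The strongest of them had 276.7 in replicate 1 and 211.9 in replicate 2, and lay 7905 bp from a Rel TSS.

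Members just short of the threshold came from both sets. Dredd and CecC each had a ranked peak with a −log10 IDR of 1.92, with signals of 86.2 and 77.94. The lowest-signal conservative peaks at members, IKKbeta and the second of PGRP-LB, had 75.88 and 76.03, apart from the weakest imd summit at 40.36. The highest ranked peak of spz, 128.8, was above its conservative one but had a −log10 IDR of 0.289. The highest signal in its window was 108.0 in replicate 1 and 41.09 in replicate 2.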
